A study of Mus musculus with 14 samples.

Results

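The genes described here are 5 ligands of the Notch receptors (Dll1, Dll3, Dll4, Jag1 and Jag2) and 5 regulators of secretory progenitors (Atoh1, Hes6, Gfi1, Spdef and Cbfa2t3), followed in mouse intestinal organoids given Isx-9. They were chosen by name, and all 10 were present among the 27399 genes of the bulk count files and in each single-cell matrix. Isx-9 is a small molecule of the isoxazole class, and organoids are epithelial cultures that grow from intestinal stem cells in medium with EGF, Noggin and R-spondin1. Bulk RNA-seq was made from EGFP-sorted stem cells of organoids with an Lgr5-EGFP knock-in, given 25 µM Isx-9 (2 libraries) or 0.05% DMSO, the solvent control (2 libraries), for 6 hours. Single-cell RNA-seq covered whole Chgb-mCherry knock-in organoids after 6 days of 25 µM Isx-9, the same reporter organoids after 6 days of 0.05% DMSO, untreated reporter organoids and untreated wild-type organoids, with 1 library each. Treatment began on day 2 after passaging. Chgb encodes chromogranin B of the enteroendocrine secretory granule, so the reporter line carries an altered allele of an endocrine gene in its treated and its DMSO libraries alike. The labels name no age, sex or number of mice, and they do not say whether libraries came from separate cultures, so p-values here measure the spread between these libraries only. Chromatin accessibility samples of the sorted cells were not analysed here.

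Notch signalling works between neighbouring cells. A Delta or Jagged ligand on one cell activates a Notch receptor on the next, and the released receptor fragment, with Rbpj, switches on repressors such as Hes1. In the intestinal crypt Hes1 keeps Atoh1 silent in absorptive progenitors. Cells that escape the signal express Atoh1, present Delta ligands to their neighbours and become goblet, Paneth or enteroendocrine cells. Neurog3 marks the progenitors of enteroendocrine cells, which secrete gut hormones and arise from Atoh1-expressing precursors in mouse.

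The bulk libraries held 18909542 to 19487264 counts. The single-cell libraries kept 10016 of 12201 cells (Isx-9), 8969 of 11632 (DMSO), 9610 of 11885 (untreated reporter) and 8745 of 10830 (wild type), with medians of 9374, 13388, 12633 and 15007 UMIs (unique molecular identifiers, 1 per captured molecule) in that order. Each pair of libraries shared 32 to 52 cell barcodes. The Isx-9 library stood apart from the other 3: most of its cells fell in clusters that held almost no cell of another library. Of 8 stem cell markers all were present in the sorted cells, and Lgr5 itself had 312 and 320 CPM (counts scaled to a library total of 1000000) in Isx-9 libraries, against 378 and 341 CPM in DMSO libraries.

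After 6 hours of Isx-9, the sorted cells carried more Jag2 and, by smaller margins, more Jag1 and Cbfa2t3, and less Hes6 and Dll1. Atoh1, Gfi1, Spdef, Dll3 and Dll4 did not pass the test. So 3 of the 10 genes rose and 2 fell (edgeR quasi-likelihood test, Benjamini-Hochberg adjusted p under 0.05), in a comparison that called 27.3% of 17418 genes tested as risen and 20% as fallen. The median log2 fold change was 0.10 over the 10 genes and 0.02 over all genes tested. The share of calls in each direction moved with the level of a gene: of the genes at 10 to 100 CPM in DMSO libraries, which include 7 of the 10, 17.9% rose and 25.9% fell, and of those at 1 to 10 CPM, which include Dll3, Atoh1 and Gfi1, 29.2% rose and 2.49% fell. In bulk RNA, a change in the number of cells of a type and a change in RNA per cell cannot be told apart.

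Jag2, a Jagged ligand that activates Notch in trans, had 98.1 and 105 CPM in Isx-9 libraries, against 35.0 and 27.8 CPM in DMSO libraries. The groups lay far apart, and the log2 fold change was 1.69 ± 0.12 (SE, n = 2 libraries each; edgeR adjusted p = 1.1e-06). Jag1, the other Jagged ligand, had 36.0 and 35.1 CPM in Isx-9 libraries, against 26.9 and 25.9 CPM in DMSO libraries. It rose by less, with a log2 fold change of 0.43 ± 0.12 (SE; edgeR adjusted p = 0.011), and its call was lost without Isx-9 replicate 1 (edgeR adjusted p = 0.064).

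Dll1, the Delta ligand most associated with secretory progenitors of the mouse crypt, had 57.3 and 64.7 CPM in Isx-9 libraries, against 71.1 and 79.3 CPM in DMSO libraries. Its groups did not overlap, but the gap between them was smaller than the distance between the libraries of either group. The log2 fold change was -0.30 ± 0.10 (SE; edgeR adjusted p = 0.0285). That call was lost with library size scaling alone (edgeR adjusted p = 0.174), without DMSO replicate 2 (edgeR adjusted p = 0.149) and without Isx-9 replicate 1 (edgeR adjusted p = 0.249). Dll3, a divergent Delta ligand that in mouse binds Notch within the cell that makes it and does not activate it in trans, had 2.84 and 2.89 CPM in Isx-9 libraries, against 1.40 and 1.27 CPM in DMSO libraries. These are 57 and 58 counts against 26 and 23, with no overlap, but the log2 fold change of 1.10 ± 0.42 did not pass (SE; edgeR adjusted p = 0.0517). Dll4, the Delta ligand that acts with Dll1 in the crypt, had 21.3 and 25.0 CPM in Isx-9 libraries, against 24.6 and 22.3 CPM in DMSO libraries, so its groups overlapped (edgeR adjusted p = 0.93).

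Hes6, a Hes family member that in mouse counteracts Hes1 and does not repress in the same way, had 54.9 and 59.1 CPM in Isx-9 libraries, against 87.5 and 87.9 CPM in DMSO libraries. Both Isx-9 libraries lay well below both DMSO libraries, with a log2 fold change of -0.62 ± 0.089 (SE; edgeR adjusted p = 0.000206), and the call held under every alternative run. Cbfa2t3, a corepressor of the ETO/MTG family that works with E proteins, had 15.7 and 15.1 CPM in Isx-9 libraries, against 8.61 and 12.4 CPM in DMSO libraries. The DMSO libraries differed from each other by more than the gap between the higher DMSO and the lower Isx-9 library, and the log2 fold change of 0.55 ± 0.21 passed narrowly (SE; edgeR adjusted p = 0.0475). It no longer passed without DMSO replicate 1 (edgeR adjusted p = 0.255), without Isx-9 replicate 1 (0.176), without Isx-9 replicate 2 (0.11), with no low-count filter (0.123) or in DESeq2 (adjusted p = 0.0772).

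Atoh1 is required for goblet, Paneth and enteroendocrine cells of the mouse intestine. It had 6.38 and 7.18 CPM in Isx-9 libraries, against 5.44 and 8.71 CPM in DMSO libraries. The Isx-9 values lay between the DMSO values, and the log2 fold change was -0.06 ± 0.28 (SE; edgeR adjusted p = 0.884). Gfi1, a zinc-finger repressor downstream of Atoh1 that favours goblet and Paneth over endocrine fate in mouse, had 3.44 and 2.34 CPM in Isx-9 libraries, against 2.64 and 2.31 CPM in DMSO libraries, again overlapping. Spdef, an ETS factor of goblet and Paneth maturation, had 6.28 and 8.33 CPM in Isx-9 libraries, against 12.1 and 9.31 CPM in DMSO libraries. Its libraries did not overlap, and its log2 fold change of -0.55 ± 0.24 did not pass (SE; edgeR adjusted p = 0.0855). Neurog3 itself had 22.7 and 18.9 CPM in Isx-9 libraries, against 6.35 and 10.4 CPM in DMSO libraries, and rose (log2 fold change 1.31 ± 0.23, SE; edgeR adjusted p = 0.0008). At 6 hours, therefore, Neurog3 rose in libraries whose Atoh1 values overlapped.

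**Figure D1:**
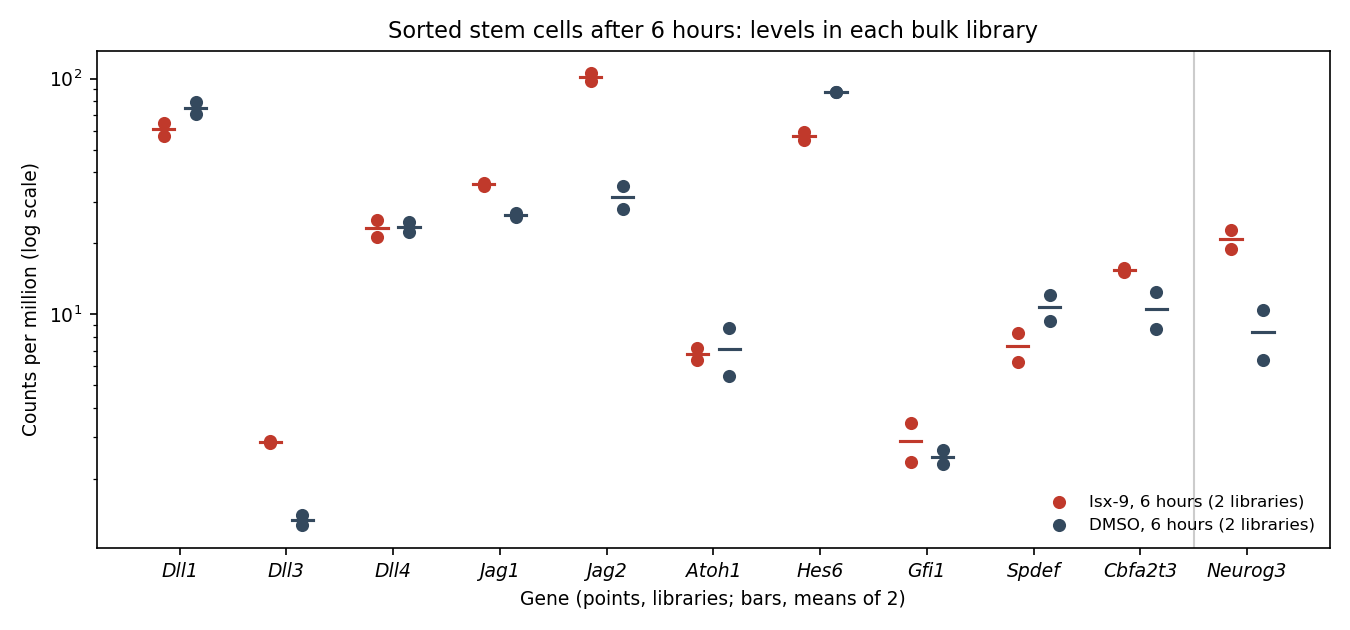
CPM (log scale) of the 10 genes and of Neurog3 in each bulk library of sorted stem cells after 6 hours, with Isx-9 (red) left of DMSO (dark), points for the 2 libraries of a group and bars for their means. Jag2 lies at 98.1 and 105 CPM with Isx-9 and at 35.0 and 27.8 CPM with DMSO, Hes6 lies lower with Isx-9, and the Atoh1, Gfi1 and Dll4 points overlap.

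In all, 4 of the 10 genes had both Isx-9 libraries above both DMSO libraries, against 38.9% of all genes tested, and 3 had both below, against 34.8%. In the authors' deposited table, made with DESeq2, Jag2 had a log2 fold change of 1.70 (adjusted p = 1.99e-31), Jag1 of 0.44 (adjusted p = 0.0307) and Hes6 of -0.61 (adjusted p = 3.6e-06). Dll1 (adjusted p = 0.0692) and Cbfa2t3 (adjusted p = 0.104) did not pass in the authors' deposited table.

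Some markers of other cell types also differed between these libraries. The summed level of the mesenchymal markers was 18.9 and 11.8 CPM in Isx-9 libraries, against 1.40 and 1.32 CPM in DMSO libraries, and both tested markers of that list rose, while Dcn was at 0 in all 4 libraries. The endothelial markers in the files summed to 4.28 and 3.94 CPM in Isx-9 libraries, against 0.43 and 0.99 CPM in DMSO libraries. At such low DMSO levels many genes rose: 100% of genes tested under 0.1 CPM in DMSO libraries, 49.7% of those at 0.1 to 1 CPM and 29.2% of those at 1 to 10 CPM. Jag1, Jag2 and Dll4 are also made by endothelial and mesenchymal cells in mouse, and the part of these cells in the values above was not tested. Of the epithelial lists, stem markers had 6 of 8 fall and 1 rise, goblet markers 1 of 8 fall and 0 rise, Paneth markers 0 of 9 tested change, tuft markers 3 of 7 tested rise, and enteroendocrine markers 2 of 14 rise and 1 fall. Cycling markers had 4 of 8 fall and 0 rise, and enterocyte markers 1 of 10 rise and 1 fall. Over all genes tested, 27.3% rose and 20% fell, and of those at 100 CPM or more in DMSO libraries 4.13% rose and 58.4% fell. The 8 stem markers summed to 9716 and 9623 CPM in DMSO libraries, and the 8 cycling markers to 2874 and 2761 CPM. Glial and neuronal markers had 2 of 3 tested rise, again at low DMSO levels. They summed to 7.42 and 4.74 CPM in Isx-9 libraries, against 2.26 and 2.42 CPM in DMSO libraries. Immune markers had 1 of 3 tested fall and summed to 20.9 and 25.2 CPM in Isx-9 libraries, against 37.1 and 30.4 CPM in DMSO libraries.

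Genes that handle the ligands and carry the signal changed in both directions at 6 hours. Over all genes tested, 27.3% rose and 20% fell. Of 17 genes that modify, traffic or compete with ligands, 8 rose and 2 fell (median log2 fold change 0.11). Several of the rises were of genes that DMSO libraries barely held, a level at which rises were the rule: of genes tested under 0.1 CPM in DMSO libraries, which passed the count filter only through the Isx-9 libraries, 100% of 901 rose, and of those at 0.1 to 1 CPM 49.7% rose. At these levels Dlk1, a non-canonical ligand, had 4.24 and 2.54 CPM in Isx-9 libraries, against 0 and 0.0551 CPM in DMSO libraries, and Neurl1a, a ubiquitin ligase for Notch ligands, had 11.2 and 7.13 CPM in Isx-9 libraries, against 0.323 and 0.331 CPM in DMSO libraries. Dlk2 and Numbl rose as well. Mib1, the ubiquitin ligase that ligand-sending cells need in mouse, fell by 0.28 on the log2 scale, and its relative Mib2 fell by 0.89. Of 14 receptors and signal transducers, 5 rose and 5 fell (median log2 fold change 0.00). Notch3 rose, with 42.7 and 44.6 CPM in Isx-9 libraries, against 12.3 and 8.10 CPM in DMSO libraries (log2 fold change 2.10), whereas Notch1, a main receptor of crypt stem cells in mouse, fell by 0.34 on the log2 scale. Aph1b, which encodes a gamma-secretase subunit, rose (log2 fold change 2.83).

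For the lists below, too, the shares over all genes tested were 27.3% risen and 20% fallen. Of 9 tested Notch targets, 4 rose and 2 fell (median log2 fold change -0.17). The 4 that rose were all under 1 CPM in DMSO libraries, where 49.7% or more of the genes tested rose. Hey1, a repressor of the Hes-related family, had 4.48 and 5.39 CPM in Isx-9 libraries, against 0.807 and 0.551 CPM in DMSO libraries (log2 fold change 2.85). Dtx1, Hey2 and Hes5 also rose. Olfm4 and Ascl2, stem cell genes that respond to Notch, fell by 0.51 and 0.29 on the log2 scale, and Hes1 had a log2 fold change of -0.17 that did not pass (edgeR adjusted p = 0.116). Of 15 tested partners and corepressors, 8 rose and 1 fell (median 0.27). Among them the ID genes, whose products block bHLH factors such as Atoh1 by binding their E protein partners, rose: Id2 had 61.5 and 67.7 CPM in Isx-9 libraries, against 22.8 and 23.5 CPM in DMSO libraries (log2 fold change 1.48), Id3 rose by a log2 fold change of 1.92, and Id4 by 2.57. Tcf3, which encodes an E protein, fell by 0.45 on the log2 scale. Of 14 endocrine factors that act beside or below Neurog3, 2 rose (Neurog3 and Rfx3) and 2 fell (Rfx6 and Myt1), with a median of 0.04. Of 12 secretory maturation genes 4 rose, led by Sytl2 (log2 fold change 1.19), and 0 fell (median 0.21).

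The promoters of 4 of the genes are shown because these genes stand for the patterns in the data: Atoh1 and Dll1, which were lower with Isx-9 after 6 days, Dll3, which was higher, and Hes6, which fell at 6 hours. Each sequence is the 250 bases before an annotated start, from RefSeq on GRCm38.p6, 5′ to 3′ on the gene's strand. Capitals mark CACGCG or its complement CGCGTG, a sequence bound by Hes and Hey repressors, and CAGCTG, an E box (its own reverse complement) of the kind bound by bHLH activators.
Atoh1 chr6:64728875-64729124 (+): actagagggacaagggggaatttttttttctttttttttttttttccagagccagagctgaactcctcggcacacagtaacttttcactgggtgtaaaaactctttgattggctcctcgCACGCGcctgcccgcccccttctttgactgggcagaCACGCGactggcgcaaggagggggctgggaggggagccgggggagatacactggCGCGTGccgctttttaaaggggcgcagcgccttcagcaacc
Dll1 chr17:15376933-15377182 (-): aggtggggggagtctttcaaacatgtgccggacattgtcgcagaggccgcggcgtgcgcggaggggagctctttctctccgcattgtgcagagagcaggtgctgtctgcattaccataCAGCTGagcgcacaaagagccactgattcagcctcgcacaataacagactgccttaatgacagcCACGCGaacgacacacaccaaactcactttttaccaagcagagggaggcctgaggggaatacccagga
Dll3 chr7:28301786-28302035 (-): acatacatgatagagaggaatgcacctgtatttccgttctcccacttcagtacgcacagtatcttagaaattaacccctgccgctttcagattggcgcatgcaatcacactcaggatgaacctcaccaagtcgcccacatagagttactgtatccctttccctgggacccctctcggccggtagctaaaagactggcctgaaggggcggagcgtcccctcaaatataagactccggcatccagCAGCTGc
Hes6 chr1:91414039-91414288 (-): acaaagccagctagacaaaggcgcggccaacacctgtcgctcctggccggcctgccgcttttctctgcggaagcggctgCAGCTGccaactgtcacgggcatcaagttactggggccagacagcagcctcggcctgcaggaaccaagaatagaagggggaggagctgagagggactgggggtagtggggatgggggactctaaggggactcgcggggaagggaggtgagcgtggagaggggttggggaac
The Atoh1 window held CACGCG at 3 places on either strand, the Dll1 window 1 CACGCG and 1 CAGCTG, the Dll3 window 1 CAGCTG that ends 2 bases before the start, and the Hes6 window 1 CAGCTG. The window of another annotated start of Dll1 held none of the sequences searched, and that of another start of Hes6 held 1 CAGCTG. All 10 genes matched the RefSeq table, with 14 windows. CACGCG was found in 4 of the 14 windows (Dll1, Dll4, Jag1 and Atoh1), against 7.62% of all 32851 windows in the table. CAGCTG was found in 6 of them (Dll1, Dll3, Jag1, both of Hes6 and Cbfa2t3), against 13.0% of all windows. TGGGAA, the core of the Rbpj sequence, was found in 2 windows (Spdef and Cbfa2t3), against 21.6% of all windows, and CAGATG in 1 (Cbfa2t3), against 14.4%. CACGTG was found in 0 of the 14 windows (6.02% of all windows), as were CACGAG (5.37%) and CATATG (3.46%). Each was searched on both strands, and no matches overlapped. The Atoh1 gene lies at chr6:64729125-64731245, Dll1 at chr17:15367354-15376932, Dll3 at chr7:28293555-28301785 and Hes6 at chr1:91411483-91414038 (GRCm38.p6).

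After 6 days, Atoh1 was far lower with Isx-9, and the Delta ligands differed in opposite directions. Summed over all cells of a library, Dll3, Jag2 and Cbfa2t3 were at least 2-fold higher with Isx-9 than with DMSO, Atoh1 and Dll1 were at least 2-fold lower, and the other 5 genes lay within 2-fold. With 1 library per group there is no test, and intervals cover counting error only. Over all genes with enough UMIs, 35.9% were at least 2-fold higher and 4.93% at least 2-fold lower, so 3 of 10 higher is near that background. The median log2 ratio was 0.23 over the 10 genes and 0.48 over all genes, a ratio of 1.40 for the median gene.

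Atoh1 had 0.816 UPM (UMIs scaled to a total of 1000000) in the Isx-9 library (92 UMIs), against 11.3 UPM in DMSO (1439 UMIs), 11.6 in untreated reporter and 18.3 in wild-type organoids. It was 13.9-fold lower with Isx-9 than with DMSO (95% interval 11.2 to 17.3). Gfi1 and Spdef, which act downstream of Atoh1 in mouse, did not share this difference. Gfi1 had 1.34 UPM in both the Isx-9 and the DMSO library, with 1.56 in untreated reporter and 2.50 in wild type (ratio of Isx-9 to DMSO 1.0, 95% interval 0.799 to 1.25). Spdef had 9.06 UPM with Isx-9 and 10.9 with DMSO, with 10.1 in untreated reporter and 15.9 in wild type. Cbfa2t3 had 48.5 UPM with Isx-9, against 14.7 with DMSO, 14.1 in untreated reporter and 21.9 in wild type, a ratio of 3.31 to DMSO (95% interval 3.14 to 3.49). The wild-type library lay above the untreated reporter library for Atoh1, Gfi1, Spdef and Cbfa2t3, a difference between lines that has no replicate.

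Dll1 had 6.52 UPM with Isx-9, against 14.3 with DMSO, 13.0 in untreated reporter and 14.4 in wild type, and was 2.20-fold lower than with DMSO. Dll3 had 11.2 UPM with Isx-9, against 1.79 with DMSO, 1.68 in untreated reporter and 1.64 in wild type, a ratio of 6.22 to DMSO (95% interval 5.40 to 7.19). The control libraries were close to each other for both Delta ligands, and the Isx-9 library lay outside them in opposite directions. Dll4 had 11.02 UPM with Isx-9, against 5.55 with DMSO, 5.46 in untreated reporter and 5.92 in wild type (ratio to DMSO 1.99, 95% interval 1.81 to 2.18), just inside 2-fold. Jag2 had 19.9 UPM with Isx-9, against 6.78 with DMSO, 6.59 in untreated reporter and 6.56 in wild type (ratio to DMSO 2.93, 95% interval 2.71 to 3.18). Jag2, which had risen at 6 hours, was thus also higher at 6 days. Jag1 had 3.72 UPM with Isx-9 and 3.92 with DMSO, a ratio of 0.948 (95% interval 0.831 to 1.08). Hes6 had 157 UPM with Isx-9 and 114 with DMSO, a ratio of 1.37 (95% interval 1.34 to 1.40) that becomes 0.985 once divided by the ratio of the median gene. The same division leaves Dll3 at 4.46, Cbfa2t3 at 2.37, Jag2 at 2.10, Dll1 at 0.326 and Atoh1 at 0.0516.

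**Figure D2:**
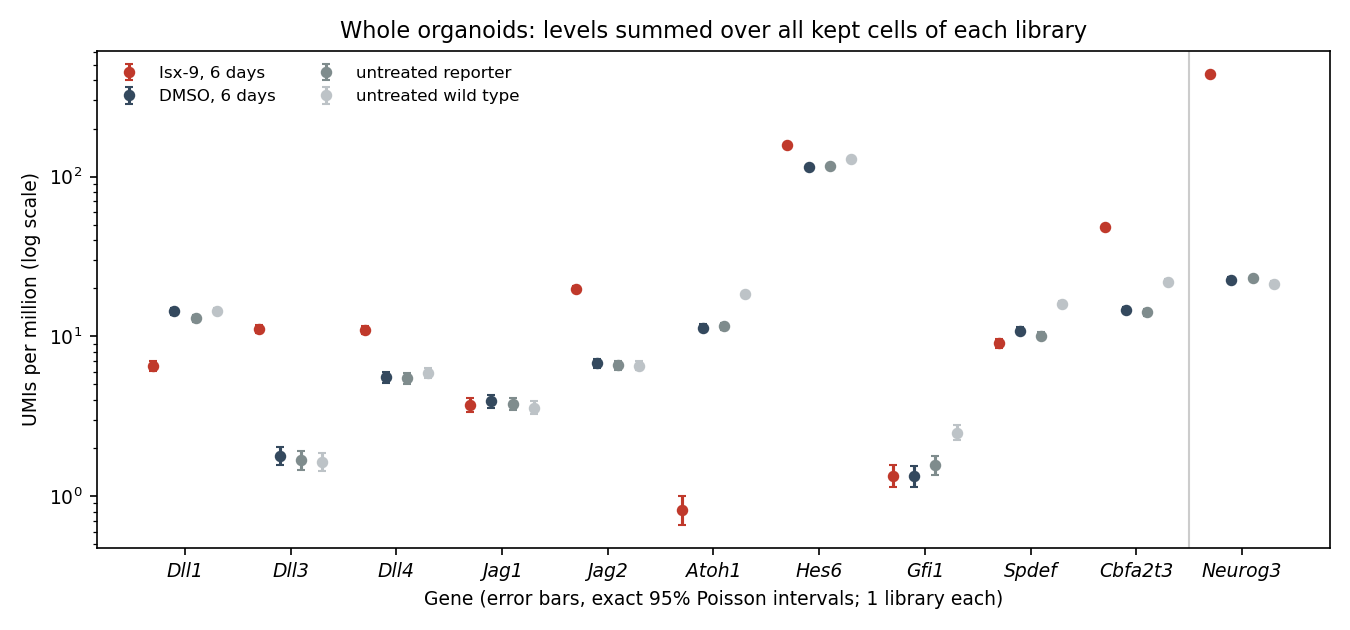
UPM (log scale) of the 10 genes and of Neurog3, summed over all kept cells of the Isx-9, DMSO, untreated reporter and wild-type libraries, with exact 95% Poisson intervals and 1 library per group. The DMSO and untreated reporter libraries lie close together, wild type lies above them for Atoh1, Gfi1, Spdef and Cbfa2t3, and with Isx-9 Atoh1 lies at 0.816 and Dll1 at 6.52, below all 3, and Dll3 at 11.2 and Jag2 at 19.9, above all 3.

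The make-up of the Delta ligands differed. Of the 3236 Delta UMIs in the Isx-9 library, 22.7% were Dll1, 38.9% Dll3 and 38.4% Dll4, whereas of the 2755 in the DMSO library 66.1% were Dll1, 8.28% Dll3 and 25.6% Dll4. The untreated reporter (64.5%, 8.35% and 27.2%, in the same order) and wild-type libraries (65.5%, 7.50% and 27.0%) resembled the DMSO library. These are proportions of UMIs, uncorrected for differences in capture between genes, and only the same proportion is compared between libraries. Within enteroendocrine-like cells the Dll3 share was 42.1% with Isx-9 (95% interval 39.95 to 44.3%) and 7.48% with DMSO (4.85 to 10.9%), and the Dll1 share was 12.2% with Isx-9 and 41.4% with DMSO. These cells formed different clusters in the libraries, mostly cluster 1 with Isx-9 and clusters 2 and 3 with DMSO, so the class does not compare like clusters.

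**Figure D3:**
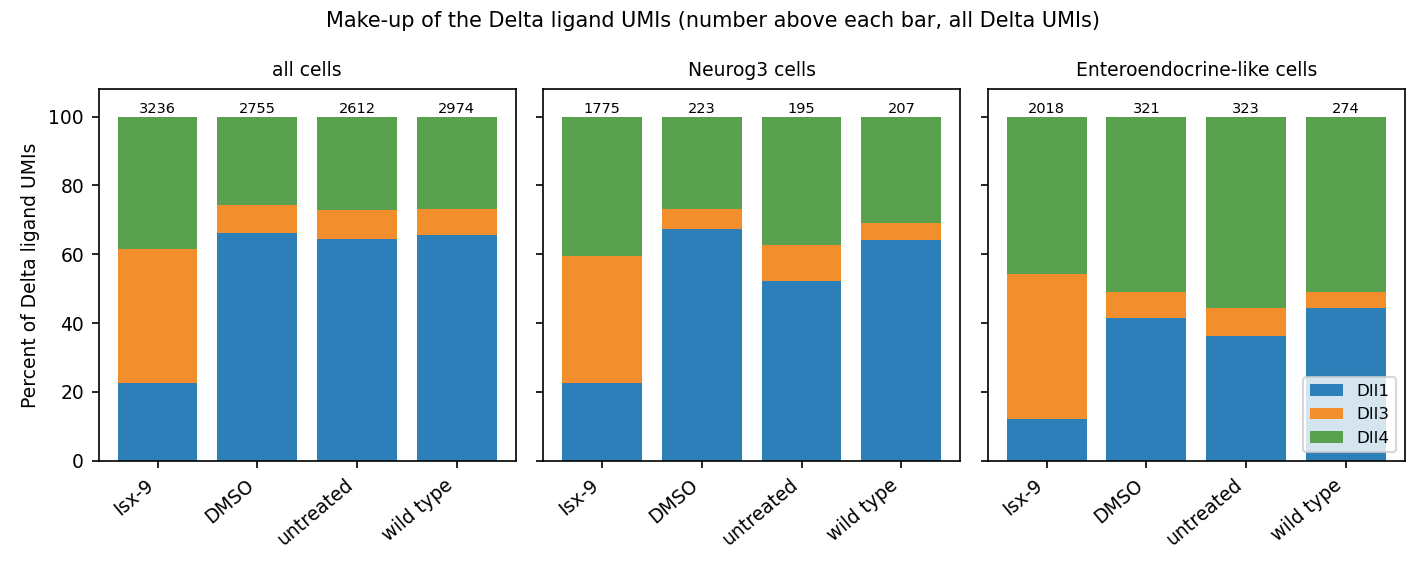
Percent of Delta ligand UMIs that were Dll1, Dll3 or Dll4 in all cells, in Neurog3 cells and in enteroendocrine-like cells of the Isx-9, DMSO, untreated reporter and wild-type libraries, with the number of Delta UMIs above each bar. Dll3 makes up 38.9% of Delta UMIs over all cells with Isx-9 and 8.28% with DMSO.

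Whether Neurog3 cells carried Atoh1 and ligands was read in cells thinned to 4000 UMIs each. A Neurog3 cell had at least 1 Neurog3 UMI after thinning. There were 2720 such cells with Isx-9, 242 with DMSO, 245 in untreated reporter and 245 in wild-type organoids, with median depths of 8286.5, 8699, 8543 and 9020 UMIs before thinning. Cells without a Neurog3 UMI were deeper, with medians of 11587, 14422.5, 13585.5 and 16191 UMIs. In the Isx-9 library, 4.15% of the cells of cluster 0, a cluster led by Cym and Ifitm1, also had a Neurog3 UMI, against 0.448% of enterocyte-like cells with DMSO, and the part of free RNA in the count of Neurog3 cells was not tested.

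Few Neurog3 cells carried Atoh1 in any library. An Atoh1 UMI was found in 5 of 2720 Neurog3 cells with Isx-9 (0.184%, 95% interval 0.0597 to 0.428%), 5 of 242 with DMSO (2.07%, 0.674 to 4.76%), 9 of 245 in untreated reporter (3.67%) and 5 of 245 in wild type (2.04%). Enterocyte-like cells, which should lack Atoh1, had 3 of 446 with DMSO (0.673%, 0.139 to 1.95%), 0 of 442 in untreated reporter (up to 0.679% by a limit of 3 counts) and 2 of 195 in wild type (1.03%), at medians of 16738.5, 15409 and 16570 UMIs. The DMSO and wild-type shares in Neurog3 cells, of 5 cells each, were thus not separated from that background by counting error. For the summed levels the intervals did not overlap. Neurog3 cells had 11.9 Atoh1 UPM with DMSO (95% interval 8.22 to 16.8) and 8.66 in wild type (5.66 to 12.7). Enterocyte-like cells of the same libraries had 1.56 (0.804 to 2.72) and 2.26 UPM (0.976 to 4.45). These intervals treat UMIs as independent, although several can come from 1 cell. The Neurog3 cells also included 14 goblet-like and 1 Paneth-like cells with DMSO, and 12 goblet-like and 3 Paneth-like cells in wild type. The part of those cells in the summed levels was not tested. The intervals of the Isx-9 and DMSO shares no longer stood apart with cells thinned to 2000 UMIs or with at least 2 Neurog3 UMIs per cell. Nor did they without the 8% of cells with the highest doublet scores in each library. Cells without Neurog3 had Atoh1 in 0.442% with Isx-9, 3.97% with DMSO, 3.88% in untreated reporter and 6.19% in wild type. Without thinning, the Atoh1 share of Neurog3 cells was 0.584% with Isx-9, 3.91% with DMSO, 5.05% in untreated reporter and 8.46% in wild type.

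The level gave the same order. Neurog3 cells held 16 Atoh1 UMIs with Isx-9 and 33 with DMSO, which in UPM is 21.1-fold lower with Isx-9 (95% interval 11.3 to 41.1). In cells without Neurog3, Atoh1 was 12.5-fold lower (9.89 to 16.0), so the difference was not limited to Neurog3 cells. Goblet-like cells made up 0.0368% of Neurog3 cells with Isx-9 and 5.79% with DMSO, and their part in the fold was not tested. Among Neurog3 cells without a Chgb UMI there was 1 Atoh1 UMI with Isx-9 and 23 with DMSO, a ratio in UPM of 0.0152 (95% interval 0.000368 to 0.0934). Read the other way, Neurog3 was found in 5 of 34 Atoh1 cells with Isx-9, 5 of 318 with DMSO, 9 of 337 in untreated reporter and 5 of 473 in wild type. Neurog3 cells made up 29.3% of all thinned cells with Isx-9, 2.98% with DMSO, 2.81% in untreated reporter and 3.14% in wild type, and the 14.7% of Isx-9 Atoh1 cells with Neurog3 (95% interval 4.95 to 31.1%) did not differ from that share beyond counting error. Cluster 5 of the Isx-9 library, led by Gm8773, Kirrel2 and Neurog3, held 555 cells with 2976 Neurog3 UPM and 0 Atoh1 UMIs.

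Neurog3 cells carried Delta ligands in every library. A UMI of Dll1, Dll3 or Dll4 was found in 23.9% of Neurog3 cells with Isx-9 (95% interval 22.3 to 25.5%), 24.4% with DMSO (19.1 to 30.3%), 29.4% in untreated reporter and 24.9% in wild type. Cells without Neurog3 had 8.35% with Isx-9, 7.91% with DMSO, 6.85% in untreated reporter and 8.16% in wild type, and enterocyte-like cells 4.04% with DMSO, 2.49% in untreated reporter and 4.62% in wild type. So the Delta share was about as high in Isx-9 as in DMSO Neurog3 cells, and in every library it lay above the cells without Neurog3. Within the Isx-9 library, cluster 0 had 2.31% at a median of 12923 UMIs.

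The ligands behind that share differed. Dll1 was found in 5.0% of Neurog3 cells with Isx-9, 14.5% with DMSO, 13.5% in untreated reporter and 13.1% in wild type, and its level in these cells had a ratio of Isx-9 to DMSO of 0.262 (95% interval 0.217 to 0.318). Dll3 was found in 10.3% of them with Isx-9, 2.07% with DMSO, 2.86% in untreated reporter and 1.22% in wild type, with a level ratio of 4.89 (95% interval 2.84 to 9.24; 652 UMIs with Isx-9 and 13 with DMSO). Dll4 was found in 10.8% with Isx-9, 9.5% with DMSO, 15.1% in untreated reporter and 12.2% in wild type, and its level ratio of 1.17 had an interval of 0.899 to 1.55. Isx-9 Neurog3 cells thus had more Dll3 and less Dll1 than those of DMSO, while the interval of the Dll4 ratio included 1. Cells without Neurog3 had similar level ratios, 3.97 for Dll3 (95% interval 3.39 to 4.67) and 0.281 for Dll1 (0.248 to 0.318). The Dll3 and Dll1 differences were thus not limited to Neurog3 cells.

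Of the 2720 Neurog3 cells with Isx-9, 83.5% had a Chgb UMI, against 37.2% with DMSO. A Chgb UMI was also found in 69.7% of all thinned Isx-9 cells and in 41.1% of cluster 0, against 8.75% of all DMSO cells and 4.26% of their enterocyte-like cells. The same split may therefore divide the Neurog3 cells of the libraries differently, and the part of free Chgb RNA in it was not tested. Split by Chgb, the Dll3 ratio of Isx-9 to DMSO was 3.68 in Neurog3 cells without Chgb (95% interval 1.86 to 8.30) and 5.53 in those with it (2.15 to 20.4; 557 UMIs against 4). The Dll1 ratio was 0.354 without Chgb (0.277 to 0.453) and 0.626 with it (0.384 to 1.09). The interval of the Dll3 ratio lay above 1 on both sides of this split, whereas that of the Dll1 ratio included 1 in cells with a Chgb UMI. In DMSO, Dll1 made up 76.0% of Delta UMIs in Neurog3 cells without Chgb and 35.4% in those with it. Among Isx-9 Neurog3 cells Dll1 was found in 2.50% of those with 1 Neurog3 UMI, 2.14% of those with 2 to 4 and 7.27% of those with 5 or more, whereas Dll3 was found in 10.0%, 9.38% and 10.7%.

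A Jagged UMI (Jag1 or Jag2) was found in 11.9% of Neurog3 cells with Isx-9 (95% interval 10.8 to 13.2%), 7.02% with DMSO (4.15 to 11.01%), 6.94% in untreated reporter and 8.16% in wild type. Cells without Neurog3 had 8.61% with Isx-9, 4.40% with DMSO, 4.19% in untreated reporter and 3.90% in wild type. Jag2 made up most of this, with 10.8% of Neurog3 cells with Isx-9 and 6.2% with DMSO, and a level ratio of 2.80 (95% interval 1.91 to 4.28). Its ratio was similar, 2.62 (95% interval 2.40 to 2.86), in cells without Neurog3, so the Jag2 difference was not limited to Neurog3 cells. Hes6 was found in 65.9% of Neurog3 cells with Isx-9, 59.5% with DMSO, 63.7% in untreated reporter and 65.3% in wild type. Cbfa2t3 was found in 37.7%, 39.7%, 42.9% and 43.7% in the same order of libraries, with a level ratio of 0.963 (95% interval 0.862 to 1.08). Its 3.31-fold difference over whole libraries was thus not seen within Neurog3 cells. In cells without Neurog3 the Cbfa2t3 level ratio was 1.85 (95% interval 1.73 to 1.99). Gfi1 and Spdef were found in 0.625% and 4.23% of Neurog3 cells with Isx-9 and in 0.413% (1 of 242 cells) and 3.31% with DMSO. Their level ratios of Isx-9 to DMSO in these cells were below 1, at 0.664 for Gfi1 (95% interval 0.258 to 2.17) and 0.648 for Spdef (0.478 to 0.898).

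**Figure D4:**
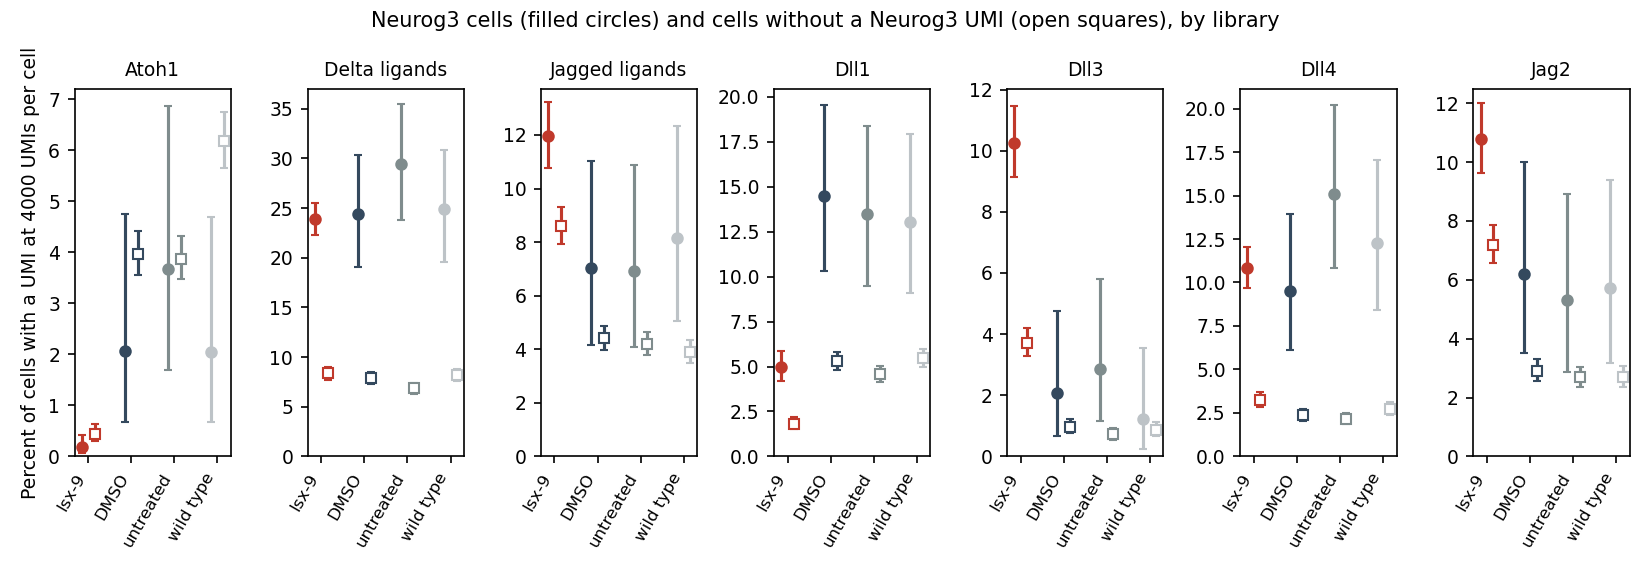
Percent of cells with a UMI of Atoh1, of any Delta or Jagged ligand, and of single ligands, in Neurog3 cells (filled circles) and cells without Neurog3 (open squares) of the Isx-9, DMSO, untreated reporter and wild-type libraries, with every cell thinned to 4000 UMIs and exact 95% binomial intervals. Neurog3 cells carry Delta ligands in 23.9% with Isx-9 and 24.4% with DMSO, with more Dll3 and less Dll1 with Isx-9, and Atoh1 in 0.184% with Isx-9 and 2.07% with DMSO.

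Across cell classes, named from marker genes, the secretory regulators had clear peaks in the control libraries. Atoh1, Spdef and Cbfa2t3 were among the genes used for clustering, so their class levels are a description. In DMSO organoids Atoh1 had 123 UPM in goblet-like cells, 104 in Paneth-like, 5.30 in tuft-like and 4.63 in enteroendocrine-like cells, and 1.96 or less in every other class. The intervals of goblet-like and Paneth-like cells overlapped, as did those of tuft-like and enteroendocrine-like cells. Spdef followed the same order, with 126 UPM in goblet-like and 85.5 in Paneth-like cells, and Gfi1 had 15.2 and 11.2 UPM there, against 0 UMIs in 627 enteroendocrine-like cells. Cbfa2t3 had 107 UPM in goblet-like, 93.4 in Paneth-like and 82.4 in enteroendocrine-like cells.

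Dll1 had 90.0 UPM in goblet-like cells of DMSO organoids, 29.2 in tuft-like, 26.3 in Paneth-like and 22.0 in enteroendocrine-like cells, with overlapping intervals among the last 3. Dll4 had 31.2 UPM in goblet-like and 27.1 in enteroendocrine-like cells. Dll3 in DMSO had 19.7 UPM in Paneth-like, 14.04 in goblet-like, 12.7 in tuft-like and 3.97 in enteroendocrine-like cells. In every other class it had 0.196 UPM or less. Jag2 had 23.9 UPM in tuft-like and 16.4 in enteroendocrine-like cells, and Hes6 191 in enteroendocrine-like and 182 in tuft-like cells, while Jag1 had at most 10.6 in any class. Goblet-like cells thus held the largest part of the Delta and Atoh1 UMIs of the DMSO library: 75.1% of Atoh1, 78.2% of Gfi1, 79.9% of Spdef, 43.2% of Dll1 and 53.9% of Dll3.

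In the Isx-9 library the same genes sat in other classes. It held 11 goblet-like and 5 Paneth-like cells, too few for a level, although the 11 goblet-like cells held 23.9% of its Atoh1 UMIs. Its 4373 enteroendocrine-like cells held 81.5% of Gfi1, 74.2% of Dll4, 67.6% of Dll3, 59.4% of Cbfa2t3 and 52.4% of Jag2 UMIs. Nearly all of these cells formed cluster 1, led by Chgb, Tac1 and Pcsk1n, whereas the 627 enteroendocrine-like cells of DMSO formed cluster 2, led by Afp, Reg4 and Tph1, and cluster 3, led by Gcg, Gip and Nts. Values within the class therefore compare cells of different clusters.

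Within that class Dll3 had 26.0 UPM with Isx-9 and 3.97 with DMSO (ratio 6.55, 95% interval 4.37 to 10.3). Dll1 had 7.53 UPM with Isx-9 and 22.0 with DMSO (ratio 0.342, 95% interval 0.276 to 0.426), and Jag2 36.0 and 16.4 in the same order (ratio 2.20, 95% interval 1.79 to 2.73). Dll4 had 28.2 UPM with Isx-9 and 27.1 with DMSO, so the higher Dll4 of the whole Isx-9 library was not seen within the class. Gfi1 had 3.76 UPM with Isx-9 (123 UMIs) and 0 UMIs with DMSO, which is at least 7.59-fold higher against a limit of 3 counts over the class, with an exact 95% lower limit of the ratio of 6.08. Untreated reporter cells of this class held 3 Gfi1 UMIs and wild-type cells 11, and the ratio of Isx-9 to wild type was 2.36 (95% interval 1.27 to 4.85). Atoh1 had 0.673 UPM with Isx-9 and 4.63 with DMSO, 6.88-fold lower. Hes6 and Cbfa2t3 both had a ratio of 1.21.

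Cluster 2 was the enteroendocrine-like cluster that both libraries shared, with 146 Isx-9 and 449 DMSO cells. Its Neurog3 level differed, at 174 UPM with Isx-9 and 581 with DMSO (ratio 0.300, 95% interval 0.227 to 0.389). Cluster 2 thus did not compare cells of like Neurog3 content, and the part of this in the ratios below was not tested. In it Jag2 had 51.1 UPM with Isx-9 and 14.7 with DMSO (ratio 3.48, 95% interval 1.91 to 6.02). Dll3 rested on 2 UMIs with Isx-9 there (ratio 1.23, 95% interval 0.14 to 5.02), and the interval of the Dll1 ratio of 0.376 was 0.0762 to 1.13. Hes6 was lower with Isx-9 in cluster 2, opposite to the whole class (ratio 0.703, 95% interval 0.518 to 0.935). Cbfa2t3 had a ratio of 0.823. Atoh1 rested on 2 UMIs with Isx-9, at 6.01 UPM against 5.36 with DMSO (ratio 1.12, 95% interval 0.128 to 4.54). The lower Atoh1 of the class was thus not seen in cluster 2, but the interval included the class ratio of 0.145. So in cluster 2 the Jag2 and Hes6 differences were larger than counting error, and those of Dll3, Dll1, Atoh1 and Cbfa2t3 were not. The upper bound of the Dll3 ratio there, 5.02, lay inside the interval of the class ratio of 6.55 (4.37 to 10.3). For Dll3 the cluster and the class were thus not separated by counting error. Tuft-like cells were also shared, with 44 Isx-9 and 361 DMSO cells. In them Dll3 had 43.4 UPM with Isx-9 (95% interval 26.9 to 66.4) and 12.7 with DMSO (9.16 to 17.1), without overlap. Dll1 had 26.9 UPM with Isx-9 and 29.2 with DMSO there, with overlapping intervals. Of the classes that held Isx-9 cells only, cluster 5 had Hes6 at 484, Cbfa2t3 at 223, Dll3 at 26.4 and Dll1 at 21.3 UPM. Cluster 0, with 3140 cells, had Spdef at 9.48, Atoh1 at 0.436 and Dll1 at 3.66 UPM.

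**Figure D5:**
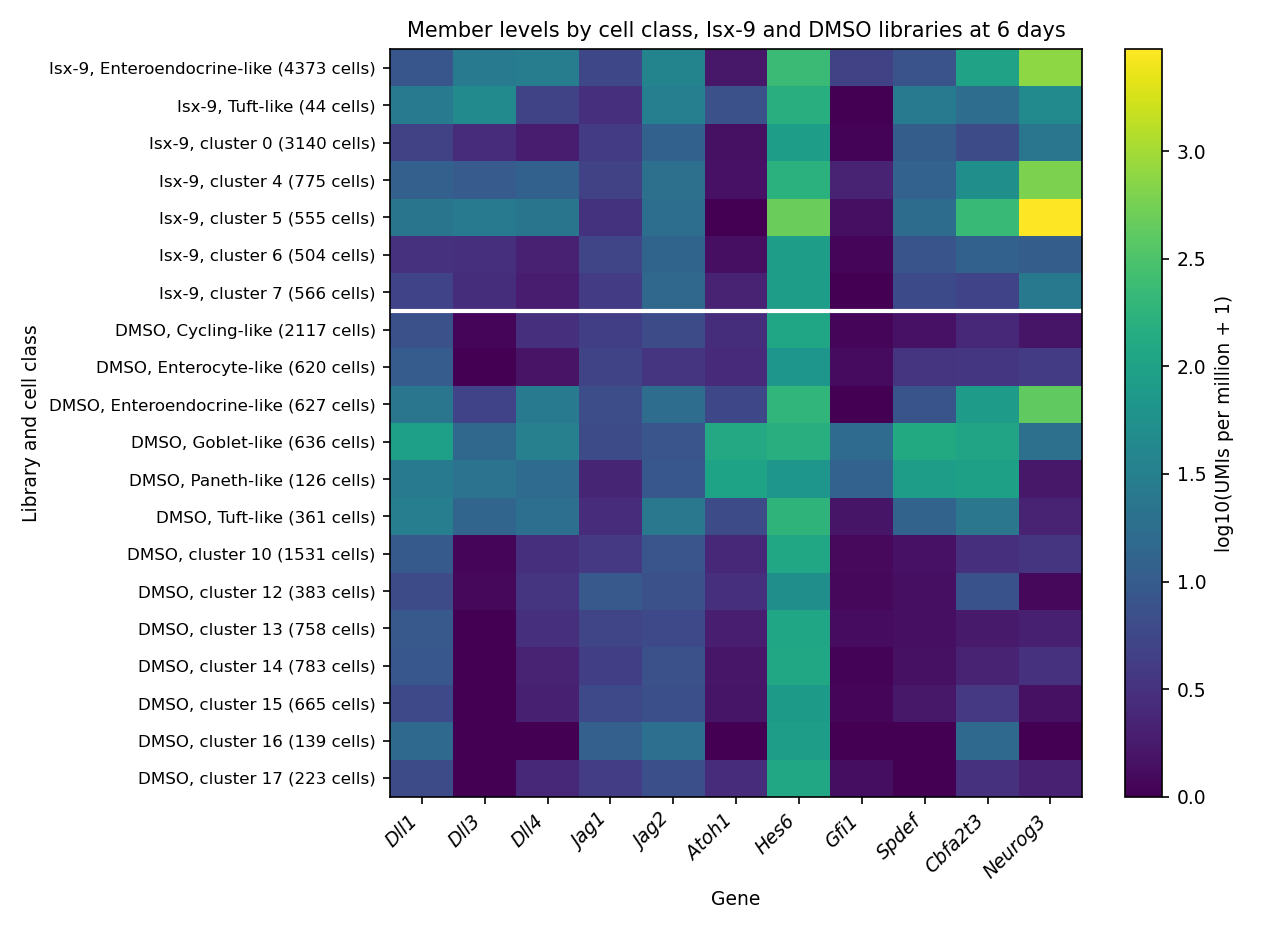
Levels of the 10 genes and of Neurog3, as log10 of UPM plus 1, in each class of at least 30 cells of the Isx-9 library (upper block) and the DMSO library (lower block) after 6 days. Goblet-like and Paneth-like rows, with Atoh1 at 123 and 104 UPM, appear for DMSO only, and Dll3 is at 26.0 in enteroendocrine-like cells with Isx-9 and at 3.97 with DMSO.

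Genes whose class pattern was most like each of the 10 were found over 46 sums of a class in a library and 13036 genes, which share libraries and depth. For Atoh1 they were Tpsg1 (Pearson r = 0.99), Rep15 (0.979) and the mucin gene Muc2 (0.977). Gfi1 was most like Rep15 (0.963) and Atoh1 (0.955), and Spdef like Creb3l4 (0.95), and also like Atoh1 (0.933). Cbfa2t3 was most like Wnt3 (0.967), and Dll4 most like Cbfa2t3 (0.916). Dll3 was most like Kit (0.918), Jag2 like Psd3 (0.92) and Hes6 like Dmpk (0.896). The patterns nearest to Dll1 (Fcgbp, 0.829) and Jag1 (Adamts15, 0.814) were less alike. Across the same sums, Neurog3 had r = 0.69 with Cbfa2t3, 0.67 with Hes6 and -0.05 with Atoh1.

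The wider pathway lists were also compared at 6 days. Over all genes with enough UMIs, 35.9% were at least 2-fold higher with Isx-9 and 4.93% at least 2-fold lower. The numbers higher among the ligand-handling genes, the receptors and signal transducers, and the corepressors and partners lay near the first share. Of 14 receptors and signal transducers, 4 were at least 2-fold higher and 0 at least 2-fold lower. Of 17 ligand-handling genes, 7 were at least 2-fold higher with Isx-9 and 0 at least 2-fold lower, among them Dner, a ligand of neural tissue (40.1 UPM with Isx-9 and 1.90 with DMSO), and the fringe glycosyltransferase gene Mfng (31.1 UPM with Isx-9 and 1.78 with DMSO). Of 9 Notch targets with enough UMIs, 5 were higher and 2 lower: Dtx1 had 13.0 UPM with Isx-9 and 0.0315 with DMSO, whereas Olfm4 had 158 UPM with Isx-9 and 2158 with DMSO, 13.6-fold lower. Nrarp, a Notch-induced inhibitor, was 2.21-fold lower, and Hes1 had 67.6 UPM with Isx-9 and 109 with DMSO. Of 14 endocrine factors 13 were at least 2-fold higher, led by Pax4 (37.1 UPM with Isx-9 and 1.71 with DMSO). Of 16 corepressors and partners 7 were higher, with Runx1t1, a paralog of Cbfa2t3, at 102 UPM with Isx-9 and 6.57 with DMSO, and Gfi1b, the paralog of Gfi1, was 3.41-fold lower. Of 12 secretory maturation genes 1 was higher and 3 were lower, namely Spink4, Agr2 and Bhlha15.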

How the data were processed

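Per the labels' protocols, bulk libraries were made with the NEBNext Ultra RNA kit and single-cell libraries by a 10x Genomics protocol. The authors deposited raw counts per gene (bulk) and UMI counts per gene and cell. Per the submitters' processing notes, which give no order, the tools include Trim Galore 0.6.4, HISAT2, HTSeq 0.12.4 and Cell Ranger 3.1.0 on GRCm38. The authors' deposited table of DESeq2 1.24.0 results holds a mean normalized signal, log2 fold changes, a score (the Wald statistic) and p-values, and is quoted only where named. Strand and annotation settings are not given in the sources used here.

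Bulk counts were filtered with filterByExpr, TMM-scaled and tested with edgeR 4.0.16 in R 4.3.3 (quasi-likelihood F test, 2-sided, adjusted over 17418 genes at 0.05). Bulk CPM are TMM-scaled. The replicates of a group differed beyond counting noise (chi-square per degree of freedom 7.52 for Isx-9 and 9.28 for DMSO).

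Cells needed 500 genes, 1000 UMIs and a mitochondrial share of 20% or less, and were clustered in scanpy 1.11.5 (2000 variable genes, 30 components, 15 neighbours, Leiden resolution 1). Scrublet marked 8.3% of Isx-9 cells but 0%, 0% and 0.01% in the DMSO, untreated and wild-type libraries, so it had not worked, and no doublets were removed. UPM (UMIs scaled to a total of 1000000) use summed UMIs of kept cells. Ratios at 6 days needed 20 UMIs over both libraries. Intervals are exact at 95% (Poisson, Clopper-Pearson or conditional binomial). Likeness used log values with 10 UPM added. Scripts were tested on simulated data.

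The genes and lists were chosen with earlier results of these data known. The named genes were the 10, Neurog3, and up to 4 genes of each list that passed, by absolute log2 fold change with at least 1 CPM in the higher group; other list genes and the 6-day list examples were chosen after their values were seen. A single gene is counted in its pathway list but not reported by name here.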

Additional observations from a re-analysis of the deposited data

Results flagged for a closer look

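Hes6 differed between the 2 times. It fell at 6 hours in the sorted cells, in both Isx-9 libraries against both DMSO libraries (log2 fold change -0.62), and at 6 days its log2 ratio of Isx-9 to DMSO was 0.46 over whole organoids. The difference between the times was not tested. The 6-hour cells were sorted from Lgr5-EGFP organoids and the 6-day cells were unsorted Chgb-mCherry organoids, so time, line and cell population cannot be told apart. Divided by the median gene, the 6-day value is -0.02, so its direction depends on the scaling.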

How the results depend on the processing

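Of the 10 genes, 3 rose and 2 fell at 6 hours. Leaving out each library in turn gave 1 to 3 that rose and 1 to 2 that fell, with 3599 to 4536 of all genes risen and 2062 to 3090 fallen. Library size scaling alone, no low-count filter and DESeq2 each left 1 of the 10 that fell (Hes6), and library size scaling alone gave 2095 fallen genes. With library size scaling alone 4 of the 10 rose, and with no filter or DESeq2 2 rose, without Cbfa2t3. That scaling moves the median gene to a log2 fold change of 0.14, and no filter to 0.13. Jag2 and Hes6 kept their calls under every alternative. Dll3 passed with library size scaling alone (1.23, edgeR adjusted p = 0.0367) and Spdef without DMSO replicate 2 (-0.73, edgeR adjusted p = 0.0378). With library size scaling alone the sign of Dll4 turned to 0.11 and that of Atoh1 to 0.065. Leaving out each library in turn gave log2 fold changes of -0.11 to 0.10 for Dll4, -0.37 to 0.31 for Atoh1 and -0.068 to 0.50 for Gfi1. The causes were not tested, and none of these values passed the test.

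Deviations of same-numbered libraries from their group means had a correlation of 0.011 over genes. As each group had 2 libraries, this is 1 value, which cannot show whether same-numbered libraries shared a culture. With the replicate number as a block, 3 of the 10 genes rose and 2 fell, with 4723 and 3408 of all genes.

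Thinning to 2000 UMIs lowered the shares of Neurog3 cells with a Delta ligand to 12.6% (Isx-9), 12.8% (DMSO), 18.0% (untreated) and 13.7% (wild type), those with a Jagged ligand to 5.32%, 3.19%, 1.90% and 2.44%, and that with Atoh1 to 0.948% in untreated reporter; fewer UMIs are read. The Atoh1 share was then 0.0838% with Isx-9 (95% interval 0.0101 to 0.302%) and 1.06% with DMSO (0.129 to 3.79%), and with at least 2 Neurog3 UMIs 0.192% (0.0524 to 0.492%) and 1.11% (0.135 to 3.96%) in that order, so these intervals overlapped. With at least 2 Neurog3 UMIs, 3.89% of DMSO Neurog3 cells had a Jagged ligand. At Leiden resolution 2, Atoh1 had 65.0 UPM in Paneth-like cells of DMSO, and at 0.5 goblet-like and Paneth-like cells were not separate, so no value was had. Leaving out called doublets, or the 8% of cells with the highest doublet scores in each library, both chosen after seeing the data, kept the shares of Neurog3 cells within their intervals. Without the highest doublet scores, the Atoh1 share was 0.170% with Isx-9 (95% interval 0.0463 to 0.434%) and 1.44% with DMSO (0.297 to 4.14%), so these intervals overlapped. Leaving out the highest doublet scores, and the mean of UMIs per 10000 in each cell, put Dll4 past 2-fold (log2 ratios 1.12 and 1.17), so that 4 of the 10 genes were at least 2-fold higher. With 1 library per group, no 6-day difference has a replicate, and genes of a few UMIs, such as Atoh1 in Isx-9 cells, are limited by depth.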
